A study of Mus musculus with 59 samples.

Results

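The genes described here are 10 regulators of transcription outside the homeobox class: Sim1, Arnt2, Ebf1, Ebf2, Ebf3, Tbx3, Neurod2, Nhlh2, Plagl1 and Cited1. They were taken from the deposited count table by their mouse symbols, and each matched 1 of the 21935 Ensembl IDs in the table. They were chosen with their levels in these libraries already known, so their differences between regions are given as a description, with no test. The treatment effects were tested across all genes, but the change of Neurod2 in 1 region was also known beforehand and is given as a description.

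The 59 libraries hold polyA RNA of laser-captured brain tissue from C57BL/6 mice that received 1 intraperitoneal injection, either the agent labelled IP118/PY115 or its vehicle, with brains taken 4 h later. Frozen brains were cut at 10 µm and 4 mm² of tissue was collected per animal from each of 3 regions. The regions were the hypothalamic paraventricular nucleus (PVN, 10 IP118/PY115 and 10 vehicle libraries), the hypothalamic arcuate nucleus (ARC, 10 IP118/PY115 and 9 vehicle libraries) and the nucleus of the solitary tract in the hindbrain (NTS, 10 IP118/PY115 and 10 vehicle libraries). The series is titled for co-agonism at PYY and GLP-1 receptors in obese-diabetic mice, while the sample labels give the strain only, with no age, sex, diet or dose. P-values measure the spread between libraries. Tissue of all 3 regions was taken from each animal, and the labels do not say which libraries share one. In such bulk tissue, fewer cells of a type and less RNA per cell cannot be told apart.

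The regulators belong to several families, and only some of them are known for a part in feeding-related neurons. SIM1 and ARNT2 are basic helix-loop-helix PAS proteins that bind DNA as a pair, and in mice both are needed to form the neurosecretory neurons of the PVN; loss of 1 copy of Sim1 makes mice overeat and become obese. The EBF proteins are helix-loop-helix factors of developing neurons that bind a palindromic site as dimers. TBX3 is a T-box factor needed in mice for the identity of ARC neurons that make the satiety precursor POMC. NEUROD2 and NHLH2 are neuronal basic helix-loop-helix factors: NEUROD2, which pairs with E proteins on E-box sites, is best known for excitatory neurons of cortex and hippocampus, and mice without Nhlh2 become obese as adults. PLAGL1 is a zinc finger factor from an imprinted gene expressed from the paternal copy. CITED1 does not bind DNA itself, but brings the acetyltransferases CBP and p300 to other factors.

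Promoters of 3 of the genes are shown because the treatment results turn on Neurod2 and Cited1, and Ebf3 is added because its promoter, too, holds the palindrome that EBF proteins bind, so the count of promoters with it follows from the choice. RefSeq promoters were matched for 8 of the 10 genes. The sequences run from 5′ to 3′ on the gene's strand, end just before annotated exons and come from RefSeq on GRCm38.p6. Capitals mark the EBF palindrome CCCNNGGG and the E-box CANNTG, each searched on both strands. The Cited1 sequence is the first of its 3 promoters; the other 2 hold no EBF palindrome and 1 E-box each, and the second holds 1 copy of ACGTG. Neurod2 lies at chr11:98329649-98329895 on the minus strand, Cited1 at chrX:102252182-102252431 on the minus strand and Ebf3 at chr7:137314446-137314695 on the minus strand.
Neurod2: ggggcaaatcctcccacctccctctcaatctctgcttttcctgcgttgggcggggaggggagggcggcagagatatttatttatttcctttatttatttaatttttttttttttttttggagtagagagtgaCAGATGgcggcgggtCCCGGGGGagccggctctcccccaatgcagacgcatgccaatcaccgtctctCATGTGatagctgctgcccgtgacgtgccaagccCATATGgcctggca
Cited1: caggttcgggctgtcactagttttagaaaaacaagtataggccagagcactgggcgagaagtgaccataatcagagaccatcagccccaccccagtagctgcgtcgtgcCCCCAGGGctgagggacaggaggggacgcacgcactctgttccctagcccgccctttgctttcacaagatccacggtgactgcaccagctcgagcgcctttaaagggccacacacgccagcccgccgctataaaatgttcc
Ebf3: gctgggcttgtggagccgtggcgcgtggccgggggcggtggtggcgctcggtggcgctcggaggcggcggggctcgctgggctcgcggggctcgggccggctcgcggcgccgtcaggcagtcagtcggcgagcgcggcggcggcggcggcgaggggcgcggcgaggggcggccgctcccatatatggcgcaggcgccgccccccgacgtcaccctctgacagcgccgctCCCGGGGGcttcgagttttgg
Each of the 3 windows printed holds 1 EBF palindrome, which 11.8% of 32851 RefSeq windows of the 250 bases before a gene start hold. The Neurod2 window alone of the 3 printed also holds E-boxes, 3 in all, a motif present in 66.2% of the windows. It holds 1 copy of ACGTG, the core bound by SIM1 with ARNT2 (16.6% of windows). None of these matches overlaps another, and a match is a string of letters and not a shown binding site.

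Library totals ran from 3964093 to 28510118 counts. In PVN the median total was 12241201 in IP118/PY115 libraries and 8612590 in vehicle libraries. The tissue labels held against defining markers: in vehicle libraries Avp averaged 6264 CPM (counts scaled to library size) in PVN, against 37 CPM in ARC and none in NTS, Pomc averaged 5.89, 699.9 and 5.12 CPM in PVN, ARC and NTS, and Dbh 0.311, 1.57 and 183 CPM. The library numbered 1 of either treatment, however, lay outside its own group and toward the other treatment for Cdkn1a in all 3 regions. The stress-responsive cell cycle inhibitor gene Cdkn1a stood in NTS at 9.0 CPM in IP118/PY115 library 1 and at 36.8 to 68.2 CPM in the other IP118/PY115 libraries, against 56.6 CPM in vehicle library 1 and 7.51 to 17.6 CPM in the other vehicle libraries. The same held for Cdkn1a in PVN, with 8.90 CPM in IP118/PY115 library 1 and 52.5 CPM in vehicle library 1, and in ARC, with 4.2 CPM in IP118/PY115 library 1 and 14.9 CPM in vehicle library 1. It did not hold for every such gene in ARC, where Zbtb16 was at 29.6 CPM in IP118/PY115 library 1, within the 21.7 to 58.1 CPM of the other IP118/PY115 libraries, and Fosb at 4.27 CPM in vehicle library 1, within the 0.789 to 6.69 CPM of the other vehicle libraries. All values keep the deposited labels, and results that rest on these 6 libraries are also given without them. They were picked from the outcome, so p-values without them are too small.

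The PAS pair Sim1 and Arnt2 was highest in PVN, and Sim1 marked it most sharply. Sim1 (ENSMUSG00000019913) spans chr10:50894754-50989152 on the plus strand and Arnt2 (ENSMUSG00000015709) chr7:84246278-84410176 on the minus strand; here and for the other genes positions are those of GENCODE M21 on GRCm38, the build of the authors' alignment. Sim1 ran from 99.3 to 152 CPM (median 134) in IP118/PY115 libraries and from 109.9 to 158 CPM (median 139.6) in vehicle libraries of PVN. In ARC it reached at most 2.09 CPM in IP118/PY115 and 1.07 CPM in vehicle libraries, and in NTS 2 counts were found in IP118/PY115 libraries and 0 in vehicle libraries. PVN thus held 588-fold more Sim1 than ARC in vehicle libraries, and at least 5600-fold more than NTS, against a floor of 3 counts over the NTS vehicle group. Of the 22 Sim1 counts in ARC vehicle libraries, 12 were in vehicle library 1, and without the libraries numbered 1 the fold of PVN over ARC was 1106. Arnt2 was found everywhere: it averaged 707 ± 32.5 CPM with IP118/PY115 and 664 ± 69.6 CPM with vehicle in PVN (SD, n = 10 each), 197 ± 33 CPM with IP118/PY115 and 189 ± 10.8 CPM with vehicle in ARC, and 311 ± 36.5 CPM with IP118/PY115 and 314 ± 29.2 CPM with vehicle in NTS. The PVN ranges of Arnt2 lay above those of both other regions in either treatment. Sim2, the close relative of Sim1, averaged 2.87 CPM with IP118/PY115 and 3.39 CPM with vehicle in PVN. Arnt, the broadly expressed relative of Arnt2, averaged between 22.4 and 26.3 CPM in all 6 groups.

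The 3 EBF genes shared a low level in ARC but differed in where they were highest. Ebf1 (ENSMUSG00000057098) spans chr11:44617317-45008091 on the plus strand, Ebf2 (ENSMUSG00000022053) chr14:67233292-67430918 on the plus strand and Ebf3 (ENSMUSG00000010476) chr7:137193673-137314445 on the minus strand. Ebf1 was highest in NTS, at 54.7 ± 6.50 CPM with IP118/PY115 and 58 ± 8.73 CPM with vehicle, against 11.7 ± 2.45 CPM with IP118/PY115 and 11.1 ± 1.75 CPM with vehicle in PVN. In ARC it averaged 1.95 ± 0.711 CPM with IP118/PY115 (n = 10) and 2.43 ± 1.21 CPM with vehicle (n = 9). No pair of regions overlapped. Ebf3 was highest in PVN, at 98.2 ± 13.5 CPM with IP118/PY115 and 104 ± 26.9 CPM with vehicle, followed by NTS at 46 ± 22.6 CPM with IP118/PY115 and 39.1 ± 15.7 CPM with vehicle. In NTS it was also the most uneven of the regulators measured above 5 CPM there, running from 15.8 to 84.2 CPM with IP118/PY115 and from 18.8 to 65.0 CPM with vehicle. IP118/PY115 libraries 3, 4 and 6 of NTS, with 67.5, 84.2 and 66.2 CPM of Ebf3, had summed oligodendrocyte markers of 9574, 7601 and 8083 CPM, and IP118/PY115 library 8, the lowest in Ebf3, had 2051 CPM. Vehicle library 5, the highest vehicle library in Ebf3, had 6759 CPM of these markers and vehicle library 9, the lowest, 2222 CPM. Ebf3 in ARC had a median of 0.203 CPM with IP118/PY115 and 0.306 CPM with vehicle, and 3 IP118/PY115 and 2 vehicle libraries were at 0. Ebf2 was low in every region, at 3.03 CPM with IP118/PY115 and 4.28 CPM with vehicle in PVN, 0.455 CPM with IP118/PY115 and 0.667 CPM with vehicle in ARC, and 2.32 CPM with IP118/PY115 and 2.12 CPM with vehicle in NTS. Its PVN and NTS ranges overlapped. Ebf4, the remaining family gene, went the other way and was highest in ARC, at 32.6 ± 4.86 CPM with IP118/PY115 and 34.1 ± 3.13 CPM with vehicle.

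Tbx3, Plagl1 and Cited1 marked ARC. Tbx3 (ENSMUSG00000018604) spans chr5:119670669-119684724 on the plus strand, Plagl1 (ENSMUSG00000019817) chr10:13060504-13131694 on the plus strand and Cited1 (ENSMUSG00000051159) chrX:102247381-102252181 on the minus strand. Tbx3 averaged 147 ± 17.7 CPM with IP118/PY115 and 174 ± 17.7 CPM with vehicle in ARC, against 5.28 ± 1.37 CPM with IP118/PY115 and 4.62 ± 0.978 CPM with vehicle in PVN. In NTS it averaged 4.34 ± 1.89 CPM with IP118/PY115 and 4.91 ± 1.80 CPM with vehicle. ARC thus held 37.7-fold more Tbx3 than PVN in vehicle libraries, and the PVN and NTS ranges overlapped. Plagl1 averaged 456 ± 55.1 CPM with IP118/PY115 and 485 ± 65.6 CPM with vehicle in ARC, 68.4 ± 5.56 CPM with IP118/PY115 and 69.3 ± 8.46 CPM with vehicle in PVN, and 32 ± 4.58 CPM with IP118/PY115 and 29.4 ± 3.44 CPM with vehicle in NTS. Cited1 followed the same order of regions, with 224 ± 33.9 CPM with IP118/PY115 and 238 ± 25.2 CPM with vehicle in ARC, 22.3 ± 4.58 CPM with IP118/PY115 and 16 ± 4.22 CPM with vehicle in PVN, and 5.35 ± 0.735 CPM with IP118/PY115 and 4.70 ± 0.992 CPM with vehicle in NTS. The 3 regions did not overlap for Plagl1 or for Cited1 in either treatment.

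The bHLH genes differed from each other. Neurod2 (ENSMUSG00000038255) spans chr11:98325415-98329648 on the minus strand and Nhlh2 (ENSMUSG00000048540) chr3:102010076-102015492 on the plus strand. Neurod2 was highest in NTS, at 15.5 ± 4.02 CPM with IP118/PY115 and 13.9 ± 3.24 CPM with vehicle, lower in PVN, at 4.16 ± 0.775 CPM with IP118/PY115 and 6.89 ± 2.05 CPM with vehicle, and nearly missing from ARC, where 2 counts were found over 10 IP118/PY115 libraries and 4 counts over 9 vehicle libraries. The PVN and NTS ranges of Neurod2 overlapped in vehicle libraries and not in IP118/PY115 libraries. Nhlh2 was the most even of the 10 genes. It averaged 68.4 ± 11.6 CPM with IP118/PY115 and 62.0 ± 8.41 CPM with vehicle in PVN. In ARC it averaged 42.9 ± 5.88 CPM with IP118/PY115 and 43.7 ± 6.90 CPM with vehicle, and in NTS 44.9 ± 10.3 CPM with IP118/PY115 and 48.5 ± 9.31 CPM with vehicle. In vehicle libraries every pair of regions overlapped. In IP118/PY115 libraries PVN (50.9 to 85.7 CPM) and ARC (34.5 to 50.6 CPM) did not overlap, and the other pairs did. For Arnt2, Ebf2, Ebf3, Tbx3 and Plagl1 a transcript on the other strand overlaps their exons by 38 to 424 bases, none is in the count table, and no source used here says whether counting used strand.

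Counted over all 10 genes in vehicle libraries, the ranges of PVN and ARC did not overlap for 9, beside 11.6% of 14379 genes, those of PVN and NTS for 6 (13.2% of genes) and those of ARC and NTS for 7 (22.6%). In IP118/PY115 libraries the counts were 10 (13.5%), 6 (20%) and 6 (18.9%). The genes were chosen on these levels, so nothing is read from the counts.

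**Figure D1:**
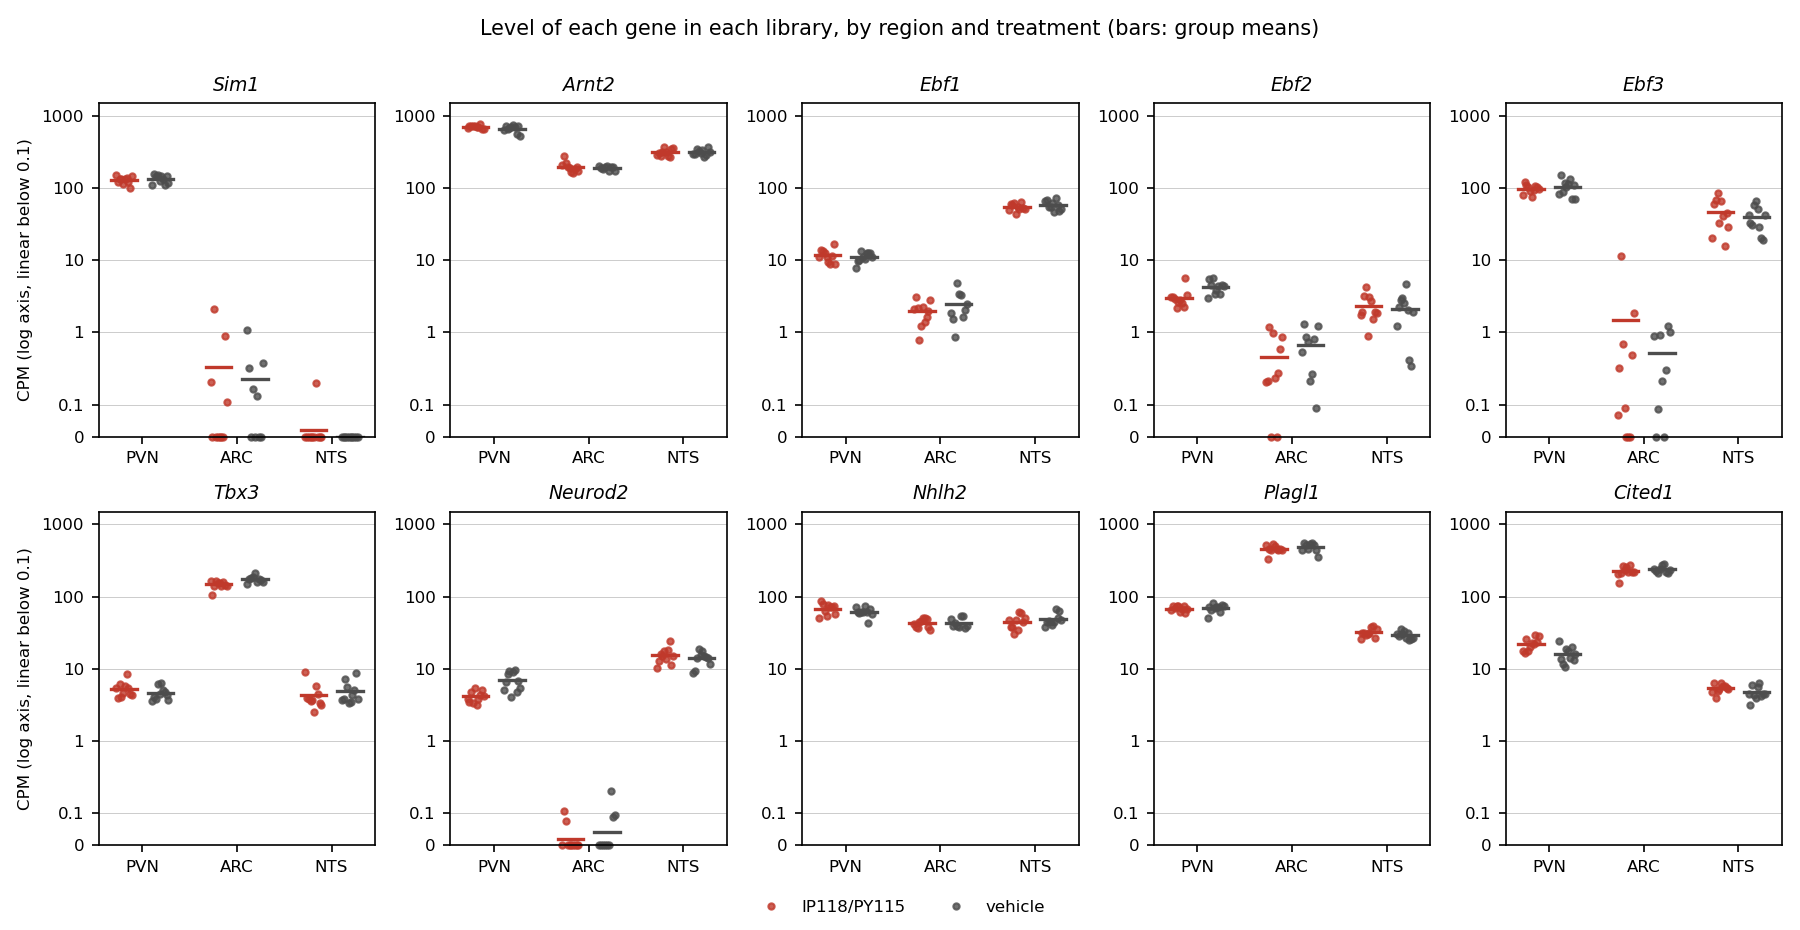
Level of each of the 10 genes in each library, in CPM on a log axis that is linear below 0.1, with IP118/PY115 libraries in red, vehicle libraries in grey and bars at group means. Sim1 is at 99.3 to 158 CPM in PVN and at most 2.09 CPM in ARC, Tbx3, Plagl1 and Cited1 are highest in ARC, and Nhlh2 lies between 30.4 and 85.7 CPM in every library.

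Levels were compared between genes only per kilobase of exon. In PVN, Arnt2 led with 92.0 CPM per kb in IP118/PY115 and 86.4 CPM per kb in vehicle libraries, and Sim1 came next with 15 CPM per kb with IP118/PY115 and 15.6 with vehicle. Cited1, Nhlh2, Ebf3 and Plagl1 followed closely, from 8.74 to 12.7 CPM per kb with IP118/PY115 and from 8.86 to 11.4 with vehicle, and each overlapped its neighbour in the order. Neurod2, Ebf1, Tbx3 and Ebf2 were lowest there, at 2.19 CPM per kb or less. In ARC the order was Cited1 (128 CPM per kb with IP118/PY115, 136 with vehicle) and Plagl1 (58.4 with IP118/PY115, 62.1 with vehicle), apart from each other and from the next, then Arnt2 (25.6 with IP118/PY115, 24.6 with vehicle) and Tbx3 (22.2 with IP118/PY115, 26.3 with vehicle), which overlapped and changed places between treatments, and Nhlh2 (7.92 with IP118/PY115, 8.06 with vehicle). The other 5 genes were at 0.249 CPM per kb or less in ARC. In NTS, Arnt2 (40.5 CPM per kb with IP118/PY115, 40.8 with vehicle) stood apart from Nhlh2 (8.28 with IP118/PY115, 8.96 with vehicle), below which Ebf1, Ebf3, Neurod2, Plagl1 and Cited1 formed a run of overlapping neighbours.

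IP118/PY115 changed 1 of the 10 genes past the threshold, Neurod2 in PVN, and none in ARC or NTS. Neurod2 ran from 3.11 to 5.48 CPM (median 4.06) in IP118/PY115 libraries of PVN, against 4.12 to 9.65 CPM (median 6.61) in vehicle libraries. All 10 IP118/PY115 libraries were below the vehicle median, and the groups overlapped, since 4 vehicle libraries were below the highest IP118/PY115 library. The log2 fold change of IP118/PY115 over vehicle was -0.73 ± 0.16 (SE; 95% interval -1.07 to -0.39; edgeR quasi-likelihood test, Benjamini-Hochberg FDR = 0.0313 over 13409 genes). By that rule 0.656% of the genes tested in PVN were called, 0.529% higher and 0.127% lower. This fall was the known result named at the outset.

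The call on Neurod2 depended on the setting. It rested on 463 counts over the IP118/PY115 libraries and 604 over the vehicle libraries. The FDR was 0.143 with the log10 library total as a covariate, 0.110 without vehicle libraries 3 and 8, which had less than 0.5 of the median PVN total, and 0.0603 with the summed oligodendrocyte markers as a covariate, while the fold change stayed between -0.78 and -0.70. Leaving out any 1 of 13 of the 20 libraries (vehicle 2, 3, 4, 6, 7 and 9, IP118/PY115 2, 3, 4, 6, 7, 8 and 10) gave an FDR of 0.0553 to 0.0855 with a fold change of -0.75 to -0.66. It stayed past the threshold by DESeq2 (-0.73, FDR = 0.00324), by limma-voom (-0.77, FDR = 0.00302), without the libraries numbered 1 (-0.77, FDR = 0.00891) and without the 3 vehicle libraries that the titles number 5553 to 5557 (-0.83, FDR = 0.0482).

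Neurod2 is itself on the list of cortical and hippocampal excitatory neuron markers. Of the 10 listed genes 7 were tested in PVN, Neurod2 among them. Of these 5 had lower and 2 higher estimates, with a median of -0.47 beside -0.02 over all genes. None but Neurod2 was called. The summed level of the list without Neurod2 ran from 224 to 298 CPM in IP118/PY115 libraries and from 219 to 498 CPM in vehicle libraries. The highest sums were 498 CPM in vehicle library 3 and 363 CPM in vehicle library 7, which had 8.42 and 9.65 CPM of Neurod2. Vehicle libraries 4 and 6, with sums of 293 and 258 CPM, had 9.28 and 8.96 CPM of Neurod2. None of the listed genes was at 0 in PVN, and 3 of the 10 had a median under 1 CPM in either group. In ARC, with 2 and 4 counts of Neurod2 in IP118/PY115 and vehicle libraries, the medians of the sum were 448 and 454 CPM. The medians of the sum were 265 and 274 CPM in PVN and, where Neurod2 was highest, 399 and 415 CPM in NTS. Of the 10 listed genes, 5 in ARC and 3 in NTS had a median under 1 CPM in either group. By other lists in PVN, thalamic markers had 1 higher and 5 lower estimates and those of the ventromedial hypothalamus 1 and 2. Oligodendrocyte markers had 1 and 9, astrocyte markers 0 and 8 and endothelial markers 3 and 5. Microglia markers had 4 and 4, mural cell markers 5 and 5 and meningeal fibroblast markers 5 and 3. No gene of these lists was called. The part of other tissue or cells in the result was not tested.

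Cited1 and Ebf2 came next in PVN and did not pass. Cited1 ran from 16.3 to 29.4 CPM (median 22.3) in IP118/PY115 libraries, against 10.5 to 24.1 CPM (median 14.9) in vehicle libraries. Every IP118/PY115 library was above the vehicle median, and the highest vehicle library was number 1. The log2 fold change was 0.47 ± 0.14 (95% interval 0.18 to 0.75; edgeR FDR = 0.136). It passed without the libraries numbered 1 (0.60, FDR = 0.00643), without vehicle library 1 alone (0.56, FDR = 0.0165) and by limma-voom with quality weights (0.54, FDR = 0.0217). The libraries numbered 1 were picked from the outcome, so the FDRs without them are too small. Cited1 did not pass by DESeq2 (0.47, FDR = 0.0525), without shallow libraries (0.47, FDR = 0.238) or without the libraries numbered 5553 to 5557 (0.45, FDR = 0.299). Nor did it pass with the oligodendrocyte markers (0.42, FDR = 0.380) or the log10 library total (0.41, FDR = 0.415) as a covariate.

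Ebf2 ran from 2.2 to 5.61 CPM (median 2.85) in IP118/PY115 libraries of PVN, against 3.0 to 5.59 CPM (median 4.43) in vehicle libraries. Its log2 fold change was -0.52 ± 0.17 (95% interval -0.87 to -0.16; edgeR FDR = 0.222), and 9 of 10 IP118/PY115 libraries were below the vehicle median. By limma-voom the value was -0.65 with an FDR of 0.00914, and with the log10 library total as a covariate the edgeR fold change was -0.39.

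The other 7 genes in PVN had an edgeR FDR of at least 0.655. The 95% intervals on the log2 scale were -0.21 to 0.10 for Sim1, -0.02 to 0.20 for Arnt2, -0.06 to 0.32 for Nhlh2 and -0.16 to 0.12 for Plagl1. Those of Ebf1 (-0.18 to 0.31), Ebf3 (-0.34 to 0.17) and Tbx3 (-0.14 to 0.50) were wider. Without the libraries numbered 1 the estimate of Nhlh2 was 0.20, against 0.13 with them (interval 0.02 to 0.39, raw p = 0.0345, FDR = 0.341), and by limma-voom that of Sim1 was -0.13, against -0.05 by edgeR (interval -0.24 to -0.0061, raw p = 0.0400, FDR = 0.285). In all, 5 of the 10 genes had a higher and 5 a lower estimate, with a median of 0.02 beside -0.02 over all genes tested. An unadjusted p under 0.05 was reached by 3 of the 10 genes, beside 9.34% of all genes. No gene of the 10 had groups that did not overlap (0.00746% of all genes).

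**Figure D2:**
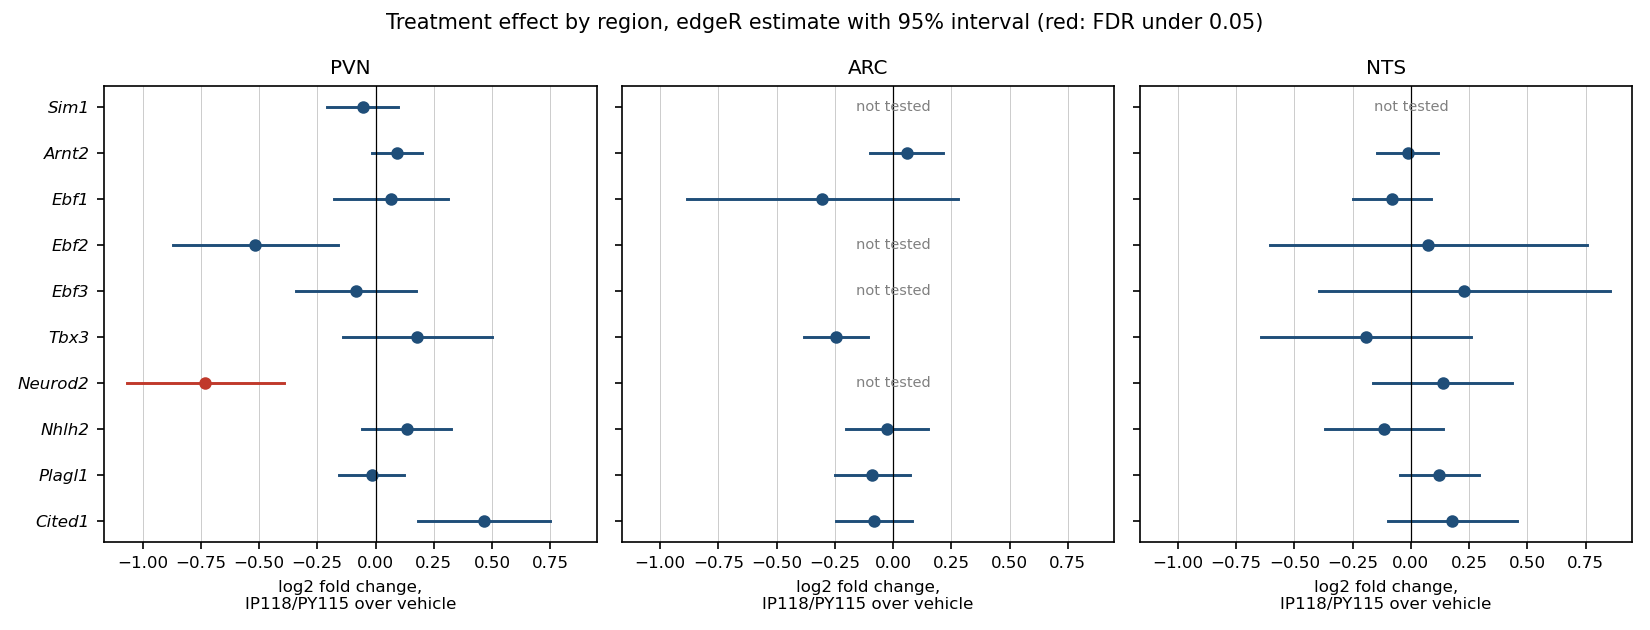
Log2 fold change of IP118/PY115 over vehicle for each gene and region, with 95% intervals from the edgeR fit, red where FDR was under 0.05. Only Neurod2 in PVN, at -0.73, is red; 4 genes in ARC and 1 in NTS fell below the count filter and have no point.

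In ARC, 6 of the 10 genes were tested and none passed, beside 0 of 13484 genes in all (0% called by edgeR; 59 genes by DESeq2 and 5 by limma-voom; 971 genes, or 7.2%, and 1 of the 6 had a raw p under 0.05). Tbx3 came nearest. It ran from 104 to 165 CPM (median 149) in IP118/PY115 libraries, against 151 to 211 CPM (median 175) in vehicle libraries, and all 10 IP118/PY115 libraries were below the vehicle median. The log2 fold change was -0.24 ± 0.07 (95% interval -0.38 to -0.11; edgeR FDR = 0.202). The vehicle library numbered 1 had the lowest vehicle value, 151 CPM, and the IP118/PY115 library numbered 1 the highest of its group, 165 CPM. Without both, the fold change was -0.28 with an FDR of 0.0297, and 1.14% of all genes were called. Both libraries were picked from the outcome, so this FDR is too small.

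The lowest Tbx3 value belonged to IP118/PY115 library 2, whose summed oligodendrocyte markers reached 5842 CPM, beside a median of 922 CPM in its group and a range of 482 to 1304 CPM in vehicle libraries. All 10 oligodendrocyte markers had higher estimates in ARC, with a median of 1.01, and none was called. The Tbx3 estimate was -0.20 without that library and -0.19 with the oligodendrocyte markers as a covariate, and the FDR was 0.162 and 0.187. Agrp and Pomc, the marker peptides of ARC, averaged 519.5 and 712 CPM with IP118/PY115 and 595 and 699.9 CPM with vehicle. Plagl1 (-0.09, 95% interval -0.25 to 0.07), Cited1 (-0.08, -0.25 to 0.08), Arnt2 (0.06, -0.10 to 0.21), Nhlh2 (-0.03, -0.20 to 0.15) and Ebf1 (-0.31, -0.89 to 0.28) did not pass. Without the 2 vehicle libraries that the titles number 5556 and 5557, which averaged 399 CPM of Plagl1 beside 510.2 CPM in the other 7 vehicle libraries, the Plagl1 estimate was -0.16 (interval -0.30 to -0.02, raw p = 0.0283, FDR = 0.677). Sim1, Ebf2, Ebf3 and Neurod2 had too few counts in ARC.

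**Figure D3:**
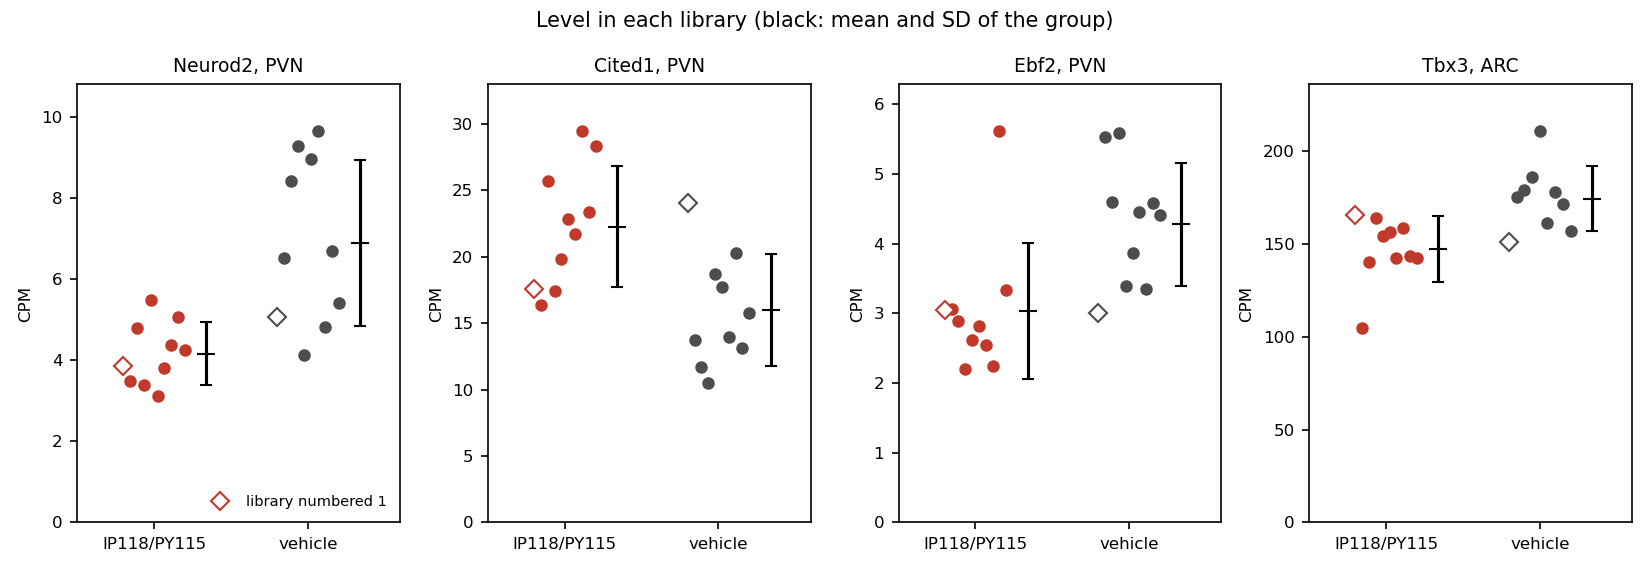
Level in each library, in CPM, of the 3 genes with the smallest p in PVN and of Tbx3 in ARC, IP118/PY115 in red and vehicle in grey, with the mean and SD in black and the library numbered 1 as an open diamond. IP118/PY115 libraries of Neurod2 reach 5.48 CPM against 9.65 CPM in vehicle libraries, and the diamonds of Cited1 and Tbx3 lie toward the other group.

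In NTS, 9 of the 10 genes were tested and none passed, beside 0 of 13696 genes in all (0% called by edgeR; 66 genes by DESeq2 and 19 by limma-voom). A raw p under 0.05 was found for 0 of the 9 and for 795 genes in all (5.8%). The edgeR FDR was 0.999 for each. Arnt2 (95% interval -0.15 to 0.12 on the log2 scale), Ebf1 (-0.25 to 0.09) and Plagl1 (-0.05 to 0.29) were the most precisely measured. Neurod2, lower with IP118/PY115 in PVN, had an estimate of 0.14 ± 0.14 in NTS (-0.16 to 0.43). Cited1 was above the vehicle median in 9 of 10 IP118/PY115 libraries of NTS, with an estimate of 0.18 ± 0.13 (-0.10 to 0.46). The estimate of Ebf3, 0.23 ± 0.30, had the interval -0.39 to 0.85, and with the oligodendrocyte markers as a covariate it was -0.0084 ± 0.11. Tbx3 had an estimate of -0.19 ± 0.22 (-0.65 to 0.26), and without the libraries numbered 1 it was -0.42 (-0.83 to -0.0025, raw p = 0.0487, FDR = 0.648).

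The treatment effects of 2 regions were compared in 1 fit over all 59 libraries, and no difference passed for any of the 10 genes. By this test 0.0487% of 14379 genes were called between PVN and ARC (0.0417% with the higher and 0.00695% with the lower effect in PVN), and 0.0904% between PVN and NTS (0.0835% and 0.00695%). Between ARC and NTS edgeR called 0% and DESeq2 10 genes. A raw p under 0.05 was found for 1, 1 and 0 of the 10 genes, beside 6.21%, 4.28% and 3.76% of all genes. The count filter ran over all groups together, so genes nearly missing from a region entered through the regions where they are higher. This holds for Sim1, Ebf2, Ebf3 and Neurod2 in ARC and for Sim1 in NTS, whose differences with that region could hardly pass. The SE was 1.44 for Sim1 in PVN minus NTS and 0.46 for Neurod2 in PVN minus ARC. The effect on Neurod2 in PVN minus that in NTS was -0.87 ± 0.22 on the log2 scale (edgeR FDR = 0.166). The effect on Cited1 in PVN minus that in ARC was 0.54 ± 0.15 (edgeR FDR = 0.259), and minus that in NTS 0.30 ± 0.18 (FDR = 1.0). The effect on Tbx3 in PVN minus that in ARC was 0.41 ± 0.21 (FDR = 0.815), and in ARC minus that in NTS -0.03 ± 0.21. Without the libraries numbered 1, the Neurod2 difference was -0.90 with an FDR of 0.0454 and the Cited1 difference between PVN and ARC was 0.66 with an FDR of 0.0238. Of all genes 0.432% and 0.362% were then called between these pairs of regions. Those libraries were picked from the outcome, so these FDRs are too small.

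Among the partners and relatives of the 10 genes, 1 gene outside the 10 was called, Pou3f2 in PVN. Of all genes tested in PVN 0.656% were called. Higher and lower in the counts of each list refer to estimates, whether or not they passed. The counts and medians include those of the 10 genes that are on a list, so they are not independent of them. POU3F2 is a POU-domain factor that acts downstream of SIM1 and ARNT2 in PVN development. It averaged 139 ± 13.5 CPM in IP118/PY115 libraries and 171 ± 23.6 CPM in vehicle libraries (log2 fold change -0.30 ± 0.07, edgeR FDR = 0.0475). This fall, too, was known beforehand. Pou3f2 was not called without shallow libraries or with the log10 library total or the oligodendrocyte markers as a covariate. In these settings no gene was called lower in PVN. Without the libraries numbered 5553 to 5557 the 1 gene called lower in PVN was Neurod2. Of the 14 genes listed as the Sim1-dependent network, 14 were tested in PVN, 4 with higher and 10 with lower estimates and a median of -0.03. Of 18 tested PAS family genes, 8 were higher and 10 lower in PVN (median -0.06), 12 of 15 higher in ARC (0.09) and 8 of 16 higher in NTS (-0.00044). No PAS family gene passed. Hif3a, a hypoxia-inducible factor gene, had the smallest p of the family in every region: it averaged 10.1 ± 3.73 CPM with IP118/PY115 and 5.78 ± 2.55 CPM with vehicle in PVN (log2 fold change 0.77 ± 0.25, FDR = 0.217), 6.74 ± 2.01 CPM with IP118/PY115 and 2.63 ± 1.88 CPM with vehicle in ARC (1.32 ± 0.31, FDR = 0.134), and 14.8 ± 3.66 CPM with IP118/PY115 and 7.51 ± 4.07 CPM with vehicle in NTS (0.99 ± 0.23, FDR = 0.142).

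The neuronal bHLH list held 18 genes, of which 7 were tested in PVN, 3 higher and 4 lower (median -0.16). Neurod1, a relative of Neurod2, averaged 11.1 ± 1.82 CPM with IP118/PY115 and 14.4 ± 4.12 CPM with vehicle in PVN (log2 fold change -0.37 ± 0.14, FDR = 0.309). In NTS 8 of 11 tested bHLH genes were higher, of which 9 tested were outside the 10 genes. The median, 0.14, was the estimate of Neurod2 itself, and Neurod1 had an estimate of -0.03 ± 0.15. Of the 7 E proteins and Id inhibitors, 5 were lower in PVN (median -0.07). Among CITED genes and their partners, 2 of 6 were higher in PVN (median -0.03). Cited2, a relative of Cited1, averaged 119.7 ± 36.5 CPM with IP118/PY115 and 70.8 ± 28.6 CPM with vehicle there (0.74 ± 0.23, FDR = 0.192).

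The remaining lists had no called member in any region. The 20 tested imprinted genes were split 13 higher and 7 lower in PVN (median 0.03), 9 and 11 in ARC (-0.01), and 10 and 10 in NTS (0.01); Peg10, an imprinted retrotransposon-derived gene, had the smallest p in PVN (0.28 ± 0.09, FDR = 0.174). The EBF genes and their zinc finger partners were 2 higher and 4 lower in PVN, 0 and 4 in ARC, and 4 and 2 in NTS. In PVN only 3 of the 6 tested were outside the 10 genes, and Zfp521 and Zfp423 lay at -0.16 and 0.06. Of the T-box genes 6, 5 and 4 were tested in PVN, ARC and NTS, with 3, 2 and 0 higher. Of the 12 arcuate neuron genes tested in ARC, 6 were higher and 6 lower (median 0.01). The Nhlh2-linked energy balance genes, which include the prohormone convertase gene Pcsk1 and the melanocortin receptor gene Mc4r, were 5 higher and 2 lower in PVN and in ARC, and 4 and 3 in NTS. The 3 PLAG genes were 1 higher and 2 lower in PVN.

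Across the 59 libraries, each gene had close companions in its pattern over regions. By Pearson's r of log2 CPM, the closest of 11704 genes was Ucn3 for Sim1 (0.983), Kcnh1 for Arnt2 (0.981), Mab21l2 for Ebf1 (0.980), Fbln1 for Ebf3 (0.959), Pomc for Tbx3 (0.987), Tshz1 for Neurod2 (0.972), Agrp for Plagl1 (0.986) and Plagl1 for Cited1 (0.985). Arnt2 was next closest to Pou3f2 (0.977) and Crh (0.973), and Cited1 to Agrp (0.984). Nhlh2, the most even gene, reached 0.839 at most, with Gng4. Ebf2 was left out, since its mean was under 5 CPM. These values mostly restate which region is highest, and libraries from 1 animal or with like tissue makeup are not independent. After each group's mean was subtracted, the highest values fell to between 0.531 for Neurod2 (with Plekha6) and 0.789 for Arnt2 (with Dock3); Sim1 was then closest to Avp (0.679). Among the 10 genes themselves, the highest such value was 0.522 between Sim1 and Ebf3, and Cited1 and Plagl1 were at -0.0043. The values of Sim1 include ARC libraries near 0. There IP118/PY115 library 3 was the highest of its group in both Sim1 (2.09 CPM) and Ebf3 (11.3 CPM), and Avp ran from 0 to 225 CPM in vehicle libraries. How far these r values rest on such libraries was not tested.

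**Figure D4:**
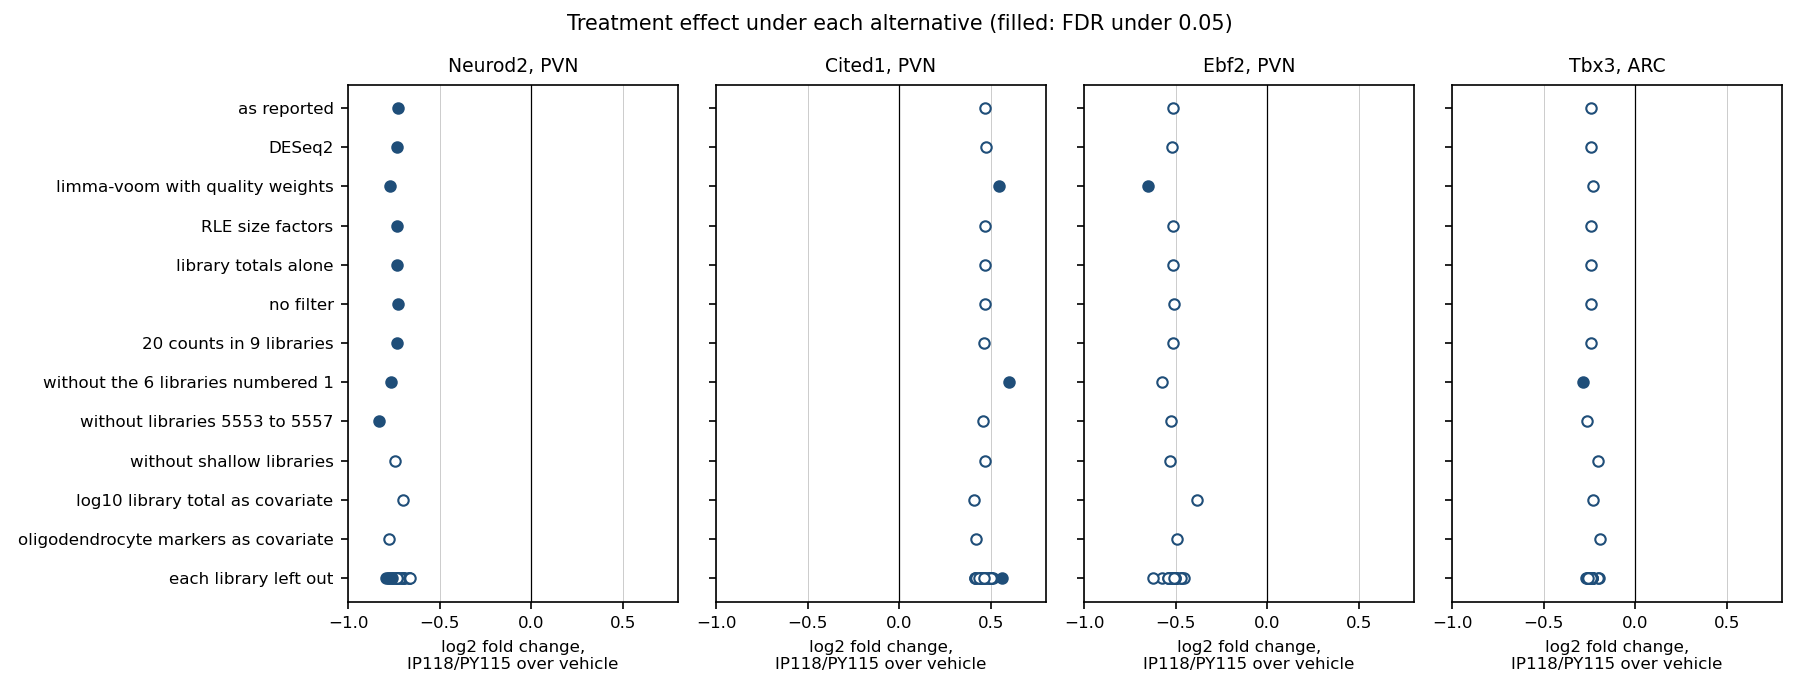
Log2 fold change of IP118/PY115 over vehicle for the 4 genes under each alternative processing, filled where FDR was under 0.05. Each gene keeps its sign in every alternative shown, while Neurod2 loses and Cited1, Ebf2 and Tbx3 gain calls in some.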

How the data were processed

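RNA of laser-captured PVN, ARC and NTS tissue was extracted on NucleoSpin columns and made into libraries with a TruSeq stranded mRNA kit, per the labels' protocols. Reads were converted with bcl2fastq 2.20.0.422 and aligned to GRCm38 with STAR 2.5.2a, per the submitters' processing notes; the counter, annotation and strand setting are not given in the sources used here. The deposited table holds the authors' raw counts per Ensembl gene for 59 libraries, with totals of 3964093 to 28510118. Of 21935 IDs, 21858 matched GENCODE M21 symbols. Groups follow the labels.

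Levels are CPM on 1 TMM scale over all libraries. Treatment was tested per region with edgeR 4.0.16 (robust quasi-likelihood fit, filterByExpr with a minimum count of 10 and total of 15, Benjamini-Hochberg FDR under 0.05 over all genes tested), and differences of effects in a fit over 59 libraries. SE is the fold change over the square root of F. The tests were tried on simulated data. Alternatives were DESeq2 1.42.0, limma 3.58.1 (voom with quality weights), other scalings and filters, covariates, libraries left out and, for differences between regions, a block, in R 4.3.3. Members and lists were chosen with earlier results of these data known. All 10 members are named, with the closest genes by r, called list genes, otherwise the 2 of smallest p in a list, and fixed relatives and region markers.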

Additional observations from a re-analysis of the deposited data

Results flagged for a closer look

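In 13 of 59 combinations of a gene and a group a library lay far from the rest of its group by Dixon's criterion. For independent, normally spread values chance meets it in about 1 of 20 groups. That rate does not apply to counts near 0, where some flags lie, and 1 library can be flagged for several genes. The 13 are therefore not set against it. No explanation was weighed.

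IP118/PY115 library 2 of ARC stood apart in 4 genes. It had 273 CPM of Arnt2, against 159 to 220 CPM in the others of its group. Its Tbx3 was 104 CPM (others 140.0 to 165), its Plagl1 337 CPM (437 to 537) and its Cited1 152 CPM (209 to 271). Its summed oligodendrocyte markers were 5842 CPM, the highest of its group, and its ARC neuron markers without Tbx3 were 1470 CPM, the lowest.

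Sim1 was found in 9 and Ebf3 in 14 of the 19 ARC libraries, mostly at low levels. IP118/PY115 library 3 had 2.09 CPM of Sim1 (28 counts) and 11.3 CPM of Ebf3 (152 counts), where the others reached 0.878 and 1.86 CPM. Vehicle library 1 had 1.07 CPM of Sim1 (12 counts).

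In PVN, Ebf2 reached 5.61 CPM in IP118/PY115 library 9 (others 2.2 to 3.33) and Tbx3 8.52 CPM in IP118/PY115 library 7 (others 3.90 to 6.12). Nhlh2 was at 43.3 CPM in vehicle library 8 (others 58.1 to 74.2). In NTS, Tbx3 reached 9.08 CPM in IP118/PY115 library 1 (others 2.48 to 5.82). Sim1 at 0.197 CPM in IP118/PY115 library 7 of NTS and Neurod2 at 0.204 CPM in vehicle library 7 of ARC rest on 2 counts each.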

How the results depend on the processing

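No paired analysis was possible because the 2 treatments of a region come from different animals, with no shared number. Between regions the title numbers run in parallel, which the labels do not explain; over 53 libraries, 15 of 49 pairs at the same place had an r over 0.1 of deviations from group means (median 0.0454, and -0.0148 for other pairs). With the place as a replicate block, added after the data were seen, these 53 libraries gave 0 calls among the 10 genes in each of the 3 differences between regions and 0, 5 and 0 over all genes in PVN minus ARC, PVN minus NTS and ARC minus NTS, with -1.05 for Neurod2 in PVN minus NTS (FDR 0.0704) and 0.62 for Cited1 in PVN minus ARC (FDR 0.448). Of the 10 genes 1 was called in PVN, beside 0.656% of all genes. By limma-voom 3 were called, beside 508 of 13409 genes. Without the 6 libraries numbered 1 the count was 2, beside 3.22% of all genes. It was 0 without libraries under 0.5 of their region's median total (9 of 13518 genes). With the log10 library total as a covariate it was 0 (6 of 13409 genes), and with oligodendrocyte markers 0 (9 of 13409 genes). It was 0 to 2 when 1 library was left out (8 to 276 over all genes). Without the libraries numbered 1, 1 gene was called in ARC, where leaving out 1 library gave 0, and 1 gene each in the differences between PVN and ARC and between PVN and NTS. Leaving out 1 library gave -0.79 to -0.66 for Neurod2, 0.41 to 0.56 for Cited1 and -0.62 to -0.46 for Ebf2 in PVN, and -0.27 to -0.20 for Tbx3 in ARC.

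Some estimates changed sign, and the cause was not tested. Of those listed here, Ebf3 in NTS had the largest edgeR estimate with all libraries and no covariate, 0.23 ± 0.30. The others were smaller in size. By limma-voom Ebf1 in PVN was -0.012 and Arnt2 in ARC -0.0013. With oligodendrocyte markers as a covariate Arnt2 in ARC was -0.024, Nhlh2 in ARC 0.022, Ebf2 in NTS -0.063 and Ebf3 in NTS -0.0084. Without the libraries numbered 1 Nhlh2 in ARC was 0.0077 and the Tbx3 effect in ARC minus NTS 0.14. With 1 library left out Plagl1 in PVN ran from -0.063 to 0.014, Arnt2 in ARC from -0.0050 to 0.092, Nhlh2 in ARC from -0.052 to 0.021, Arnt2 in NTS from -0.047 to 0.012 and Ebf2 in NTS from -0.067 to 0.31.

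Over all genes, the 88 calls in PVN were 209 by DESeq2, 508 by limma-voom, 429 without the libraries numbered 1, 175 at an FDR of 0.1, 12 without the libraries that the titles number 5553 to 5557, 9 without shallow libraries, 6 with the library total and 9 with oligodendrocyte markers as a covariate, and 8 to 276 with 1 library left out. Without the libraries numbered 1, 153 genes were called in ARC and 162 in NTS (0 with them), and 52, 62 and 35 in the differences PVN minus ARC, PVN minus NTS and ARC minus NTS (7, 13 and 0 with them). Depth limits Neurod2, Ebf2 and everything under about 1 CPM.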
